A study of Canis lupus familiaris with 15 samples.

Results

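CCL25, CCL27 and CCL28, chemokines made by epithelial cells, were measured in dog skin on a custom NanoString panel, an assay that counts reporter tags bound to RNA molecules without amplification. The members were the 3 panel probes, of 160, whose RefSeq accession maps to dog CCL25 (NM_001005259.1), CCL27 (NM_001003968.1) or CCL28 (NM_001005257.1). Archival, paraffin-embedded skin biopsies of 15 dogs were compared: 7 labelled with discoid lupus erythematosus (DLE), 5 healthy dogs sampled at leg margins, and 1 dog each labelled with chronic cutaneous lupus and suspected systemic disease (CCLE), mucocutaneous lupus (MLE) and pyoderma, a bacterial skin infection. The DLE dogs were 1 to 13 years old and of different breeds or crosses, the CCLE and MLE dogs were 7 and 6 years old and the pyoderma dog was 9. Age was not given in the sources used here for the healthy dogs, nor the body site of the lesions or any treatment. The healthy samples were marked as shared with an earlier series, and the pyoderma sample had earlier carried another disease label. Samples were counted as different dogs; should some share a dog, the p-values measure only the spread between samples.

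Chemokines are small secreted proteins that direct leukocytes bearing the matching receptor. CCL27 is made by keratinocytes of the epidermis and holds skin-homing T cells through the receptor CCR10. CCL28 binds the same receptor, and CCR3 as well, but is best known from mucosal and glandular epithelia, where it draws antibody-secreting cells. CCL25 acts through another receptor, CCR9, and is best known from thymus and small intestine.

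Panel counts summed to between 209889 and 675018 per dog, and to 495839 to 587169 in the DLE dogs. All 5 healthy dogs had the keratinocyte genes KRT1, KRT5 and KRT14 above background, as did all 7 DLE dogs. The background limit of a dog, the mean plus 2 SD of its 8 lowest control rows, lay between 13.6 and 30.0 counts. The spike-in control rows that were high differed between 9 dogs (all DLE, MLE and pyoderma dogs, set A) and 6 dogs (all healthy dogs and the CCLE dog, set B), so DLE and healthy skin cannot be told apart from this difference between the sets. Control rows took 8.04% to 33.3% of the counts in healthy dogs and 7.87% to 15.4% in DLE dogs.

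CCL27 was low in every lesion. In the raw counts, healthy dogs 1 to 5 had 90, 67, 243, 157 and 88 CCL27 counts. The 7 DLE dogs had between 20 and 34, with a median of 29. The counts of the CCLE, MLE and pyoderma dogs were 31, 17 and 32. The 10 lesional dogs thus lay below all 5 healthy dogs before any scaling, although 4 of the healthy dogs had smaller panel sums than any DLE dog. Raw counts of all 10 lesional dogs lay below all healthy dogs for 5.06% of the 158 probes other than the reference genes. The healthy counts stood 2.50 to 10.6 times above the background limit of their dogs. Those of DLE dogs 5 and 7 (20 counts each) and of the MLE dog lay under the limit, so their CCL27 level is an upper bound. The exact 95% Poisson intervals, which cover counting error only, were 12.2 to 30.9 for 20 counts and 51.9 to 85.1 for the lowest healthy count.

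**Figure D1:**
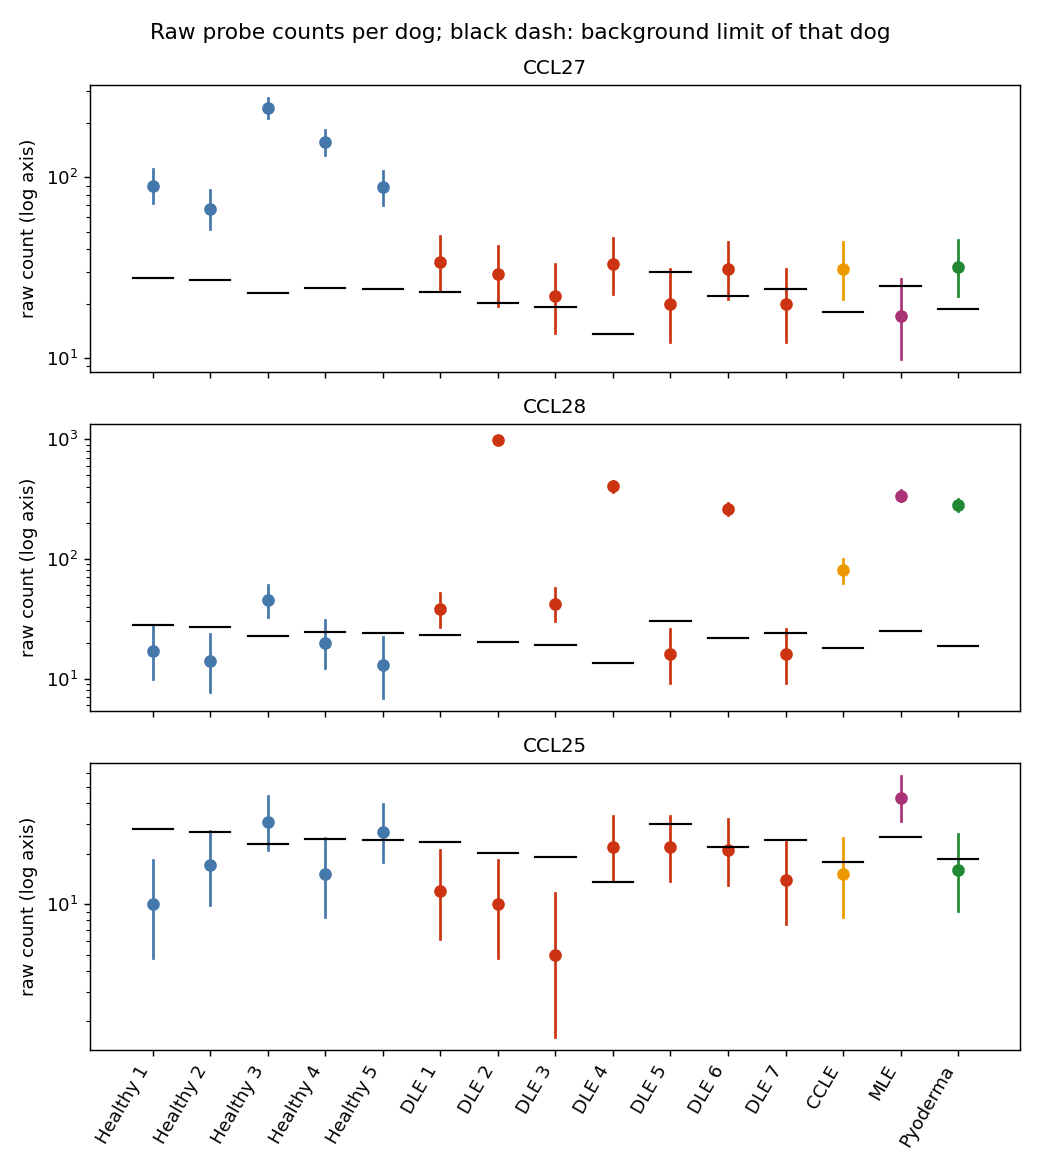
Raw counts of the 3 chemokine probes in each dog (points, log axis) with exact 95% Poisson intervals (bars) and the background limit of that dog (black dashes). CCL27 was above the limit in 12 of 15 dogs and highest in the 5 healthy dogs, CCL28 was above it in 9 dogs and far above it in 5 lesional dogs, and CCL25 was above it in 4.

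To compare dogs, counts were divided by a library size scaled with TMM (trimmed mean of M values, which assumes that most probes do not differ) over the panel probes. The normalised CCL27 count was 27.9 ± 8.83 in DLE dogs (SD, n = 7) and 139 ± 39.97 in healthy dogs (n = 5). DLE dogs ranged from 17.3 to 43.4 with a median of 27.5, and healthy dogs from 88.6 to 197 with a median of 142. The groups did not overlap, which held for 11.4% of probes in this direction, and 9.49% of probes were lower in all 10 lesional dogs than in all healthy dogs. The fitted log2 fold change was -2.33 ± 0.29 (SE, edgeR adjusted p = 2.04e-05), with a 95% interval from -2.95 to -1.71 (-3.11 with background subtracted), and 24.0% of 154 probes tested were called lower in DLE. The coefficient of variation of CCL27 among DLE dogs was 31.7%, against a median of 47.2% over all probes, with 2 of these 7 dogs under the background limit and the others within 2.43 times of it.

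The 3 dogs with other diagnoses had no replicates, so their values were placed beside the groups without a test. CCL27 stood at 29.3 normalised counts in the CCLE dog, at 36.4 in the pyoderma dog and at 12.6 in the MLE dog. The CCLE and pyoderma dogs lay inside the DLE range and the MLE dog below it, as it did for 17.1% of probes. On the log2 scale the difference from the healthy mean was -2.16 in the CCLE dog, -1.86 in the pyoderma dog and -3.32 in the MLE dog. All 3 were below every healthy dog, a position held by 34.2% of probes in the CCLE dog, 26.6% in the pyoderma dog and 34.2% in the MLE dog. The CCLE dog, which shared its set of control rows with the healthy dogs, was 1 of these. The pyoderma dog, the other control of the study, shared its set with the DLE dogs and did not stand apart from them. With the set as a block, a fit of the 9 lupus dogs against the 6 others gave CCL27 a log2 change of -1.35 (adjusted p = 0.0883), and 3.90% of 154 probes were called lower and 22.1% higher in it. In that fit the pyoderma dog counts as a control, and only it and the CCLE dog separate lupus from the set.

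CCL28 behaved differently from dog to dog. DLE dogs 2, 4 and 6 had 982, 404 and 262 raw counts. DLE dogs 1 and 3 had 38 and 42, and DLE dogs 5 and 7 had 16 each. In healthy dogs 1 to 5 the counts were 17, 14, 45, 20 and 13. Only healthy dog 3 exceeded its background limit, so the healthy level is an upper bound. Healthy dog 3 also had the largest panel sum (675018). The other healthy dogs had 209889 to 370814, less than any DLE dog, so low CCL28 and low total counts cannot be told apart in them. The 45 counts of healthy dog 3 were more than those of DLE dogs 1, 3, 5 and 7. The MLE dog had 338 counts, the pyoderma dog 284 and the CCLE dog 80. High CCL28 was therefore present in lesions of different diagnoses, pyoderma included: counts were 48.5, 29.8 and 11.9 times the background limit in DLE dogs 2, 4 and 6, 13.5 times in the MLE dog and 15.3 times in the pyoderma dog.

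After TMM scaling CCL28 ranged from 13.8 to 932 among the DLE dogs with a median of 82.8, and from 17.7 to 27.4 among the healthy dogs with a median of 25.1. The groups overlapped: 5 DLE dogs exceeded every healthy dog, and the other 2, under the background limit, were lower than every healthy dog. These positions depended on the scaling. In raw counts only DLE dogs 2, 4 and 6 exceeded healthy dog 3 (45 counts). DLE dogs 5 and 7 (16 each) lay above healthy dogs 2 and 5 (14 and 13), all under their limits. After scaling, 8 of the 10 lesional dogs lay above all healthy dogs, a count that 34.2% of probes reached or passed. The MLE dog did so for 43.0% of probes and the pyoderma dog for 42.4%. The mean was 238 ± 331 in DLE (SD, n = 7) and 23.1 ± 4.64 in healthy skin (n = 5). The coefficient of variation among DLE dogs, 139%, was rank 5 from the highest of 158 probes.

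**Figure D2:**
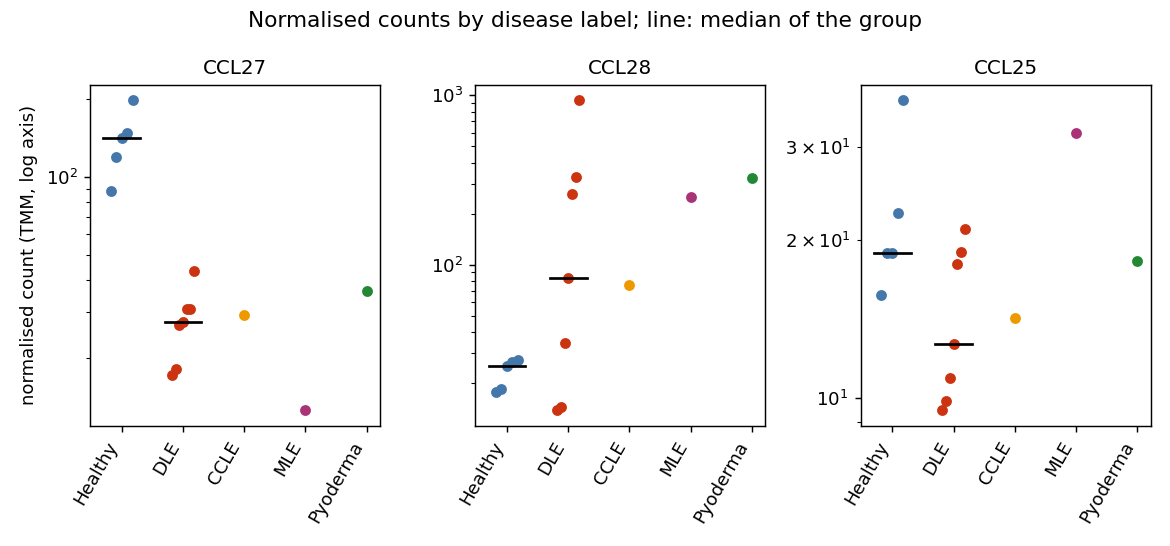
Normalised counts (TMM, log axis) of the 3 chemokines in each dog by disease label, with the group median as a line where a group had more than 1 dog. CCL27 separated healthy from lesional dogs, CCL28 spread from 13.8 to 932 within DLE, and the CCL25 groups overlapped.

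The fitted log2 fold change of CCL28 was 3.36 ± 1.02 (SE, edgeR adjusted p = 0.0102), with a 95% interval from 1.17 to 5.54, and 37.7% of probes tested were called higher. With 4 of 5 healthy dogs under the background limit this fold has no exact value, and it was 4.92 with background subtracted. Without DLE dog 2 it was 2.40 (edgeR adjusted p = 0.0213). On log2 counts, where a single high dog weighs less, the mean difference was 1.95 and did not pass the test (limma adjusted p = 0.0808, exact permutation adjusted p = 0.140 over 154 probes). With the set of control rows as a block the change was 0.56 (adjusted p = 0.717), in a fit whose controls include the pyoderma dog. Within set B, the CCLE dog at 75.7 normalised counts lay above all healthy dogs, as 37.3% of probes did there, and 1.69 above their mean on the log2 scale.

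CCL25 was near background in most dogs. Raw counts were between 5 and 22 in the DLE dogs and between 10 and 31 in the healthy dogs, and they passed the background limit in DLE dog 4, healthy dogs 3 and 5 and the MLE dog, which had the highest count, 43. Normalised counts were 14.4 ± 4.77 (SD, n = 7) in DLE and 22.5 ± 8.30 (n = 5) in healthy dogs, and the groups overlapped. The log2 fold change was -0.62 ± 0.28 (SE, edgeR adjusted p = 0.0701), with a 95% interval from -1.24 to -0.01. The MLE dog stood at 31.9 normalised counts, above all DLE dogs (as did 10.1% of probes) and inside the healthy range, while the CCLE dog stood at 14.2 and the pyoderma dog at 18.2. With 1 of 7 DLE and 2 of 5 healthy dogs above the limit, these levels are mostly upper bounds, and whether CCL25 was called lower depended on the scaling and the tool (adjusted p from 0.000864 to 0.768).

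The ligands of CCR10 were then set against each other within each dog. The share of CCL27 in the summed raw counts of CCL27 and CCL28 does not depend on any scaling between dogs. The counts come from different probes, so the share compares dogs and not the abundance of the 2 transcripts. It was 84.1%, 82.7%, 84.4%, 88.7% and 87.1% in healthy dogs 1 to 5, the lowest exact (Clopper-Pearson) 95% bound being 72.7%. In DLE dogs 1 to 7 it was 47.2%, 2.87%, 34.4%, 7.55%, 55.6%, 10.6% and 55.6%. It was 27.9% in the CCLE dog, 4.79% in the MLE dog and 10.1% in the pyoderma dog. The healthy shares were above every lesional share, as the raw CCL27 counts alone already were, and shares of other probe pairs were not examined. In 4 of the 5 healthy dogs CCL28 was under the background limit, so that their shares set CCL27 against background. In DLE dogs 5 and 7, which had the highest lesional shares (upper bound 72.1%), both genes were under the background limit, so their share reads background.

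**Figure D3:**
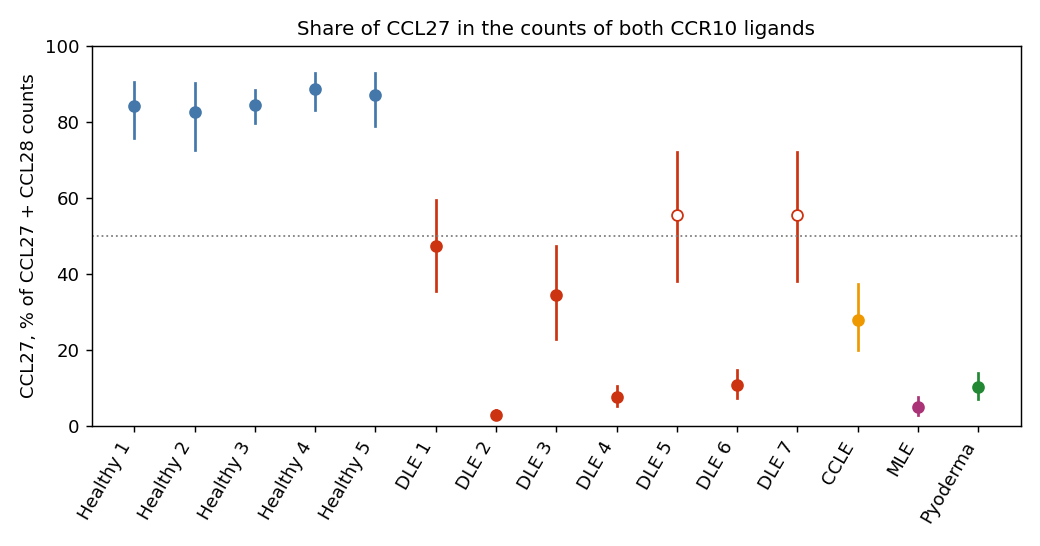
Share of CCL27 in the summed raw counts of CCL27 and CCL28 in each dog, in percent, with exact 95% binomial intervals that cover counting error only; open points mark the dogs with both genes under the background limit, and the dotted line is an equal share. Healthy dogs lay between 82.7% and 88.7% and lesional dogs between 2.87% and 55.6%.

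On the log2 scale the ratio of CCL27 to CCL28 counts averaged 2.50 ± 0.29 in healthy (SD, n = 5) and -1.73 ± 2.14 in DLE dogs (n = 7), a difference of -4.23. Because CCL28 was under the limit in 4 of the 5 healthy dogs, and both genes in DLE dogs 5 and 7, these ratios are partly set by background, and the difference was -6.14 with background subtracted. No p is given for it, because both genes were chosen with earlier results known. The lesions reached the low ratio in different ways. DLE dogs 1, 5 and 7 had low CCL27 beside CCL28 at no more than 1.63 times their background limit, DLE dog 3 had CCL28 at 2.19 times its limit, and DLE dogs 2, 4 and 6 and the MLE and pyoderma dogs had low CCL27 beside high CCL28. The CCLE dog, compared within its set of control rows, differed from the healthy mean by -3.84. In the other set the 8 lupus dogs lay 1.07 above the pyoderma dog.

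Scaling moved the median log2 fold change of all probes from 0.42 under TMM to 1.07 with the reference genes HPRT1 and RPL13A, to 0.72 with the spike-in rows, to 0.16 with DESeq2 size factors and to -0.25 with the panel median. Over 6 scalings the log2 fold change of CCL27 ran from -3.04 to -1.65 and that of CCL28 from 2.58 to 4.18. Relative to the median of each scaling, CCL27 changed by -2.79 to -2.68 and CCL28 by 2.83 to 3.11. Subtracting the median takes out most of the scaling for any probe, so these narrow ranges are no test of robustness to it. CCL25 lay between -1.05 and -0.92 on the same measure, while its own fold change was 0.14 with the reference genes and -1.27 with the panel median (adjusted p = 0.000864), a call that depended on the scaling. The share of calls that were higher in DLE was 61.1% for TMM, 82.8% for the reference genes, 77.0% for spike-in rows and 40.7% for the panel median.

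**Figure D4:**
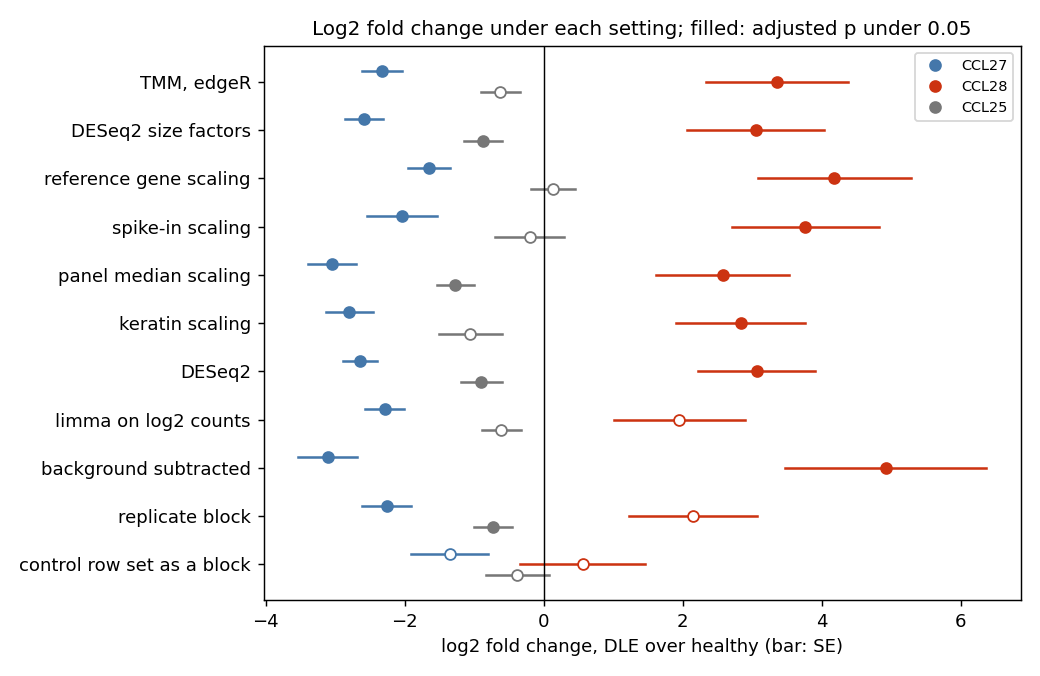
Log2 fold change (x axis, with SE as bars) of CCL27, CCL28 and CCL25 between DLE and healthy dogs under each setting; filled points had an adjusted p under 0.05, and the last line compares 9 lupus with 6 other dogs. CCL27 stayed between -3.11 and -1.35 and CCL28 between 0.56 and 4.92, while CCL25 lay on both sides of 0.

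Keratinocytes are the known source of CCL27, so it was also set against keratin counts of the same dog. Summed counts of the markers KRT1, KRT5, KRT14 and the protease KLK7 ranged from 87677 to 261690 normalised counts in DLE and from 64260 to 131880 in healthy dogs, and the ranges overlapped. KRT14, a keratin of the basal layer, was called higher (log2 1.32, edgeR adjusted p = 0.0243), and KRT1 (0.80), KRT5 (0.41) and KLK7 (-1.24) did not pass. Per 100000 raw counts of KRT1, KRT5 and KRT14 together, healthy dogs had 141 to 228 CCL27 counts, with a median of 167. DLE dogs had 8.23 to 34.2, and the CCLE, MLE and pyoderma dogs 46.0, 17.3 and 34.3. No lesional dog reached the healthy range on this measure, and for how many other probes this held was not counted. The summed keratin counts themselves were 39515 to 140923 in healthy and 90596 to 243024 in DLE dogs. With the keratins used for scaling, a setting chosen after the data were seen, the CCL27 fold change was -2.80 (edgeR adjusted p = 3.71e-05). In that setting 49 of 155 probes were called lower, against 37 of 154 under TMM. CCL28 per 100000 keratin counts was 20.1 to 43.0 in healthy dogs, with a median of 29.5, and 6.58 to 898 in DLE dogs, with a median of 35.7. On this measure DLE dogs 2, 4 and 6 lay above the healthy range, DLE dogs 1 and 3 (35.7 and 32.0) inside it and DLE dogs 5 and 7 below it.

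Markers of other cells in the biopsies were set beside the shares of all probes called, 37.7% higher and 24.0% lower. All 3 T and NK cell genes on the panel were called higher (KLRD1, FOXP3 and CD40LG, summed 160 to 542 normalised counts in DLE and 62.1 to 85.4 in healthy dogs), and so was 1 of 2 B and plasma cell genes, the B cell gene MS4A1, but not CD38 (log2 0.26). Both stromal genes, COL1A1 and CXCL12, were called lower (summed 22273 to 52352 and 42367 to 143370), as was PPARG, a transcription factor of fat and sebaceous gland cells (78.8 to 583 and 373 to 3375). Both mast cell genes, KIT and MS4A2, were called lower, of the macrophage genes CD86 was called higher and CD163 lower, and none of 3 melanocyte genes passed. In bulk tissue, fewer cells of a type and less RNA per cell cannot be told apart, and the part of cell makeup in the CCL27 and CCL28 values was not tested.

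None of the receptors and decoys of these ligands that were looked for (CCR10, CCR9, CCR3, ACKR2 and ACKR4) matched a probe by symbol, and 88 probes had no symbol. Of the 15 homing partners 1 was matched, SELPLG, which carries the selectin ligand of skin-homing T cells, and it rose (log2 2.42, edgeR adjusted p = 2.37e-05). Of 19 other chemokine ligands 6 were called higher and 3 lower, with a median log2 change of 0.55 against 0.42 over all probes, of which 37.7% were called higher and 24.0% lower. The largest changes were those of CXCL10 (6.98) and CCL5 (5.67), attractants of T cells. Of 11 cytokines that act on keratinocytes, 2 were called higher and 4 lower, with a median of -0.37. IFNA5 (log2 -3.65, under the limit in all DLE dogs, and of a family whose probes may bind related transcripts) and IFNG, an interferon that lymphocytes secrete (2.31), changed most. TNF, a known inducer of CCL27 in human keratinocytes, was called higher (log2 1.81, edgeR adjusted p = 0.000176) in the DLE group, in which CCL27 was lower. IL1B, of the same list, was not called (log2 0.85, edgeR adjusted p = 0.225). Any link between these cytokines and CCL27 was not tested.

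Genes with the most similar pattern were taken as the 3 symbols with the highest Pearson r on log2 normalised counts over the 15 dogs, which share panel, scaling and groups. For CCL27 these were EDA, a ligand needed for skin appendages (r = 0.90, and 0.68 within the 7 DLE dogs), IFNA7 (0.83 and 0.76) and CXCL12 (0.82 and 0.40). IFNA7 was above background in 8 of the 15 dogs and in 3 of the 7 DLE dogs, so its values rest partly on background counts. For CCL28 they were CCL3, a monocyte and T cell chemokine whose probe may also bind CCL4 (r = 0.81, and 0.89 within DLE), OXTR, the oxytocin receptor, above background in 6 dogs (0.66 and 0.95), and CCL20, the ligand of CCR6 (0.60 and 0.48). For CCL25 they were the monocyte attractant CCL7 (0.77 and 0.75), PPARG (0.63 and 0.35) and TACR1, the substance P receptor (0.59 and 0.46), but CCL25 was above background in 4 of the 15 dogs, so these values rest mostly on background counts. CCL27 and CCL28 had r = -0.43 over the 15 dogs and 0.49 within DLE. CCL28 was above background in 9 of the 15 dogs, and both genes were under the limit in DLE dogs 5 and 7. All r values of CCL28 thus rest partly on background counts.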

How the data were processed

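The authors deposited whole counts for 160 panel probes and 14 control rows in 15 dogs. Per the labels' protocols, RNA came from archival paraffin sections with a Qiagen kit. Whether counts had been scaled or background-corrected, and with which software, was not given in the sources used here. Accessions were matched without version to RefSeq symbols of UU_Cfam_GSD_1.0 (72 probes), which gave names only. edgeR 4.0.16 (R 4.3.3) compared 7 DLE with 5 healthy dogs with TMM scaling, filterByExpr (154 of 158 probes kept, all 3 chemokines among them), glmQLFit and glmQLFTest, two-sided, and Benjamini-Hochberg adjustment over all probes tested, called under 0.05. HPRT1 and RPL13A were left out of the tests. limma 3.58.1, DESeq2 1.42.0 and an exact permutation test over 792 splits were alternatives. Log2 values used a pseudocount of 1. Every pair of dogs of a group differed by far more than counting error (chi-square over degrees of freedom at least 162). The edgeR fit was also run on simulated counts with known changes. These took library sizes and spread from these data and held no effect of control row set or background, so they cannot address those limits. Members, gene lists and tests were chosen with earlier results of these data known. Genes named beside the members were the listed genes on the panel, with the 2 largest changes per list of ligands, and the 3 symbols nearest in pattern; TNF and the remaining single genes were named after their values were seen.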

Additional observations from a re-analysis of the deposited data

Results flagged for a closer look

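CCL28 in DLE dog 2, at 931.8 normalised counts, stood far from the other 6 DLE dogs. Its gap to the next dog was 0.656 of the range of the group, where 0.568 is the 95% critical value of Dixon's test for 7 samples. About 1 group in 20 passes by chance if its values are normally distributed. The CCL28 counts were tested without logs and were skewed in DLE (mean 238, median 82.8). Both ends of the DLE and healthy groups were also tested for CCL25, CCL27 and the CCL27 share, and no other value passed. Without this dog the log2 fold change of CCL28 was 2.40 (edgeR adjusted p = 0.0213).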

How the results depend on the processing

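In 1 of the 14 other settings, the control row set as a block, 9 lupus dogs were compared with 6 others instead of DLE with healthy dogs. CCL27 stayed lower in all 14 and was called in 13, with a range of -2.46 to -2.17 when single dogs were left out. Its call ended only with the control row set as a block (-1.35). CCL28 stayed higher in all 14 and was called in 10. Its call ended with limma (1.95), the exact permutation test (1.95), the replicate block (2.14) and the set block (0.56), and it ranged from 2.40 to 3.57 without single dogs. CCL25 was called lower with DESeq2 size factors (-0.87), the panel median (-1.27), DESeq2 (-0.90) and the replicate block (-0.73), and was 0.14 with reference genes. Its range without single dogs was -0.73 to -0.38, with a call only without DLE dog 6. It had no value after background subtraction, where the filter removed it. The difference in the log2 ratio of CCL27 to CCL28 moved from -4.23 to -6.14 with background subtracted and ranged from -4.57 to -3.68 without single dogs. Within set A, where 8 lupus dogs were compared with the pyoderma dog, it was 1.07. The cause of these changes was not tested.

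Probes called higher numbered 58, with 82 under reference gene scaling, 44 under panel median and keratin scaling, 34 under the set block and 53 to 59 without single dogs. Those called lower numbered 37, with 17 under reference gene scaling, 17 under spike-in scaling, 64 under the panel median, 6 under the set block and 35 to 41 without single dogs. No pairing of dogs by replicate number was seen: the deviations of same-numbered dogs correlated at -0.14 to 0.17. Correlations between dogs with different numbers were not computed, so these values have no reference. Counts near the background limit of 13.6 to 30.0 limit what can be said of CCL25, of CCL28 in healthy dogs and of CCL27 in lesions.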
